A study of Homo sapiens with 6 samples.

Results

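The baseline transcriptome of control NB4 cells was described from the 3 vector control libraries among the 6 libraries of the study, chosen by their labels alone. NB4 is an established human cell line derived from acute promyelocytic leukaemia (APL). The study sequenced poly(A) RNA of NB4 cells given a lentivirus for CD69 and of vector control cells, which the labels call wild-type. All were grown in RPMI medium with fetal bovine serum, were collected in logarithmic growth, carried the same batch number and received no drug. The design text calls the libraries biological replicates without tying them to separate transductions, so the spread between them may be technical and the 3 may stand for 1 transduced population. The overexpressing libraries were not used here.

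A promyelocyte is the stage of granulocyte development at which the primary, or azurophil, granules are filled with myeloperoxidase and serine proteases. Leukaemic promyelocytes are known for abundant MPO, for surface CD33, for little CD34 and HLA-DR, and for low expression of the HOXA genes and MEIS1. The disease is defined by a fusion of PML with RARA, which counts per gene cannot show.

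Total counts were 55716218, 56221245 and 57463020 in control replicates 1, 2 and 3, and wherever 3 values are given for a gene below they follow that order. Levels are counts per 1000000 counts of the library (CPM), which compare libraries for 1 gene. Levels of different genes are ranked or set against each other only per kb of exon, scaled to 1000000 per library (TPM), and CPM values of several genes that stand in 1 sentence are not ranked. The lists of genes with the most counts and the thresholds for expressed and off rest on CPM. A value after ± is the SD (n = 3). A gene was called expressed at 1 CPM or more in all 3 libraries, off at under 0.2 CPM in all 3, and between otherwise. Of 61806 genes, 13439 were expressed (21.7%) and 41324 were off (66.9%), and of 19838 protein-coding genes 11677 were expressed (58.9%), 5204 were off (26.2%) and 2957 lay between. The share of expressed members in each gene list below is to be read beside that 58.9%. No count at all was found for 30980 genes, 3372 of them protein-coding. A gene at 0 counts may still have been present at up to 0.0538, 0.0534 and 0.0522 CPM, the level of 3 counts, which covers counting error only and would be higher if 1 fragment stands for several counts. Replicates 1 and 2 resembled each other more than either resembled replicate 3, with a median difference of 1.04-fold against 1.15-fold and 1.14-fold over 10853 genes of at least 5 CPM. An SD over the 3 libraries therefore mostly carries the distance of replicate 3.

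The label was checked first against 6 markers. ELANE (neutrophil elastase, ENSG00000197561, GRCh38 chr19:851014-856247, plus strand) stood at 104, 101 and 128 CPM and PRTN3 (proteinase 3, ENSG00000196415, chr19:840960-848175, plus strand) at 112, 113 and 137 CPM. CD33 (a sialic acid binding receptor of myeloid cells, ENSG00000105383, chr19:51225064-51243860, plus strand) stood at 45.2, 46.7 and 48.6 CPM. ITGB2 (the beta subunit of the leukocyte integrins, ENSG00000160255, chr21:44885953-44931989, minus strand) reached 1344, 1314 and 1392 CPM. These 4 genes were expressed, and replicate 3 was the highest library for each. The spread was small for CD33 (46.8 ± 1.66 CPM) and ITGB2 (1350.1 ± 39.7 CPM). It was wider for ELANE (111 ± 14.4 CPM) and PRTN3 (121 ± 14.5 CPM). CD69 (an early activation antigen of the leukocyte surface, ENSG00000110848, chr12:9752486-9760901, minus strand) was expressed in the vector control cells at 80.8, 82.6 and 68.8 CPM, with replicate 3 the lowest.

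MPO went against the label. The gene for myeloperoxidase (ENSG00000005381, chr17:58269856-58280935, minus strand) held only 81, 65 and 52 counts, or 1.45, 1.16 and 0.905 CPM, and so lay between the thresholds. Per kb of exon it stood at 1.05 ± 0.262 TPM, beside 340.3 ± 37.2 TPM for ELANE, 332 ± 33 TPM for PRTN3 and 338 ± 44.4 TPM for AZU1. In bulk RNA, fewer cells with a transcript and less transcript per cell cannot be told apart, and this holds for every level given here. The label's CD33, low CD34 and low HLA-DR were met, the high MPO and the low HOXA and MEIS1 were not (values below).

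The azurophil granule list of 16 genes also holds eosinophil genes, such as EPX and CLC. Of these 16 genes, 10 were expressed (62.5%, beside 58.9% of all coding genes), 5 were off and MPO lay between. The protease CTSG (cathepsin G) stood at 569, 567 and 678 CPM, and with 1388 ± 117 TPM it was the highest of the list per kb. AZU1 (azurocidin, an enzymatically inactive relative of elastase) stood at 174, 174 and 225 CPM. The 4 genes CTSG, AZU1, PRTN3 and ELANE each had replicates 1 and 2 close together and replicate 3 above both. This was not particular to them. The median log2 ratio of replicate 3 to the mean of the other libraries was 0.29 for ribosomal protein genes. It was 0.27 for nuclear cytochrome c oxidase genes. The ribonucleases RNASE2 and RNASE3, cationic granule proteins also known from eosinophils, reached 262, 252 and 274 CPM and 101, 92.4 and 122 CPM. LYZ (lysozyme) reached 283, 291 and 277 CPM, or 508 ± 21.9 TPM.

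The remaining genes of this list were low or off. BPI, which binds bacterial endotoxin, stood at 11.3, 9.78 and 11.4 CPM, PRSS57 at 2.44, 2.77 and 3.2 CPM and PRG2 at 2.55, 2.7 and 1.27 CPM. EPX (eosinophil peroxidase) was off at 0.126, 0.0534 and 0.139 CPM. The defensin genes DEFA1, DEFA3 and DEFA4 and the eosinophil and basophil gene CLC had 0 counts in all 3 libraries. DEFA1 and DEFA3 are near-identical copies whose reads some counting settings drop, so their 0 is uncertain. Transcripts of CTSG, AZU1, PRTN3 and ELANE at 332 to 1388 TPM thus stood beside MPO near 1 TPM and defensins at 0 in the same libraries.

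**Figure D1:**
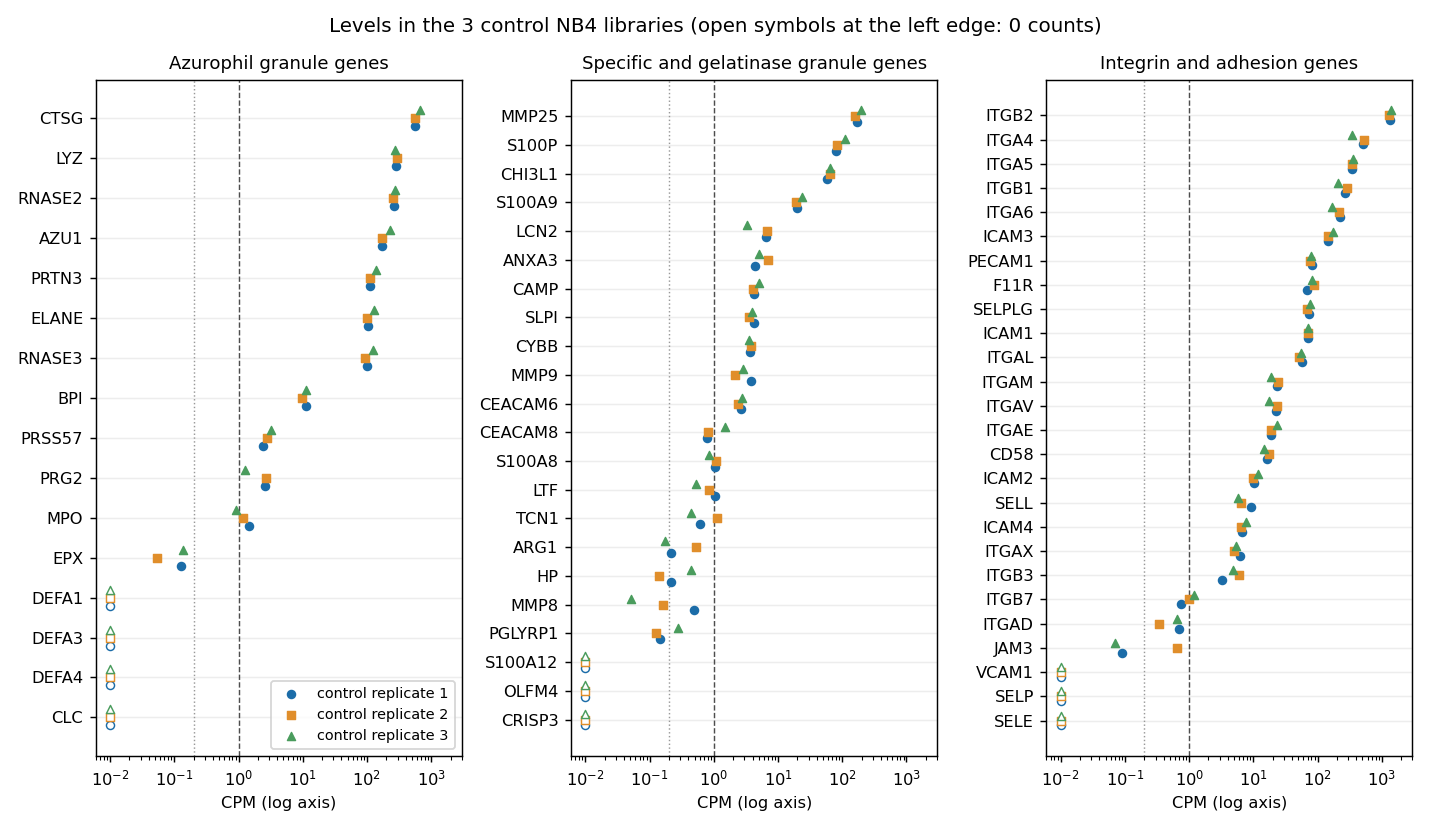
Levels in CPM on a log axis for the genes of the azurophil granule, specific granule and adhesion lists, 1 symbol per control library. The dashed line is at 1 CPM, the dotted line is at 0.2 CPM, and open symbols at the left edge stand for 0 counts. CTSG, AZU1, PRTN3 and ELANE lie between 101 and 678 CPM in all 3 libraries, and MPO lies at 0.905 to 1.45 CPM.

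The start regions of AZU1, PRTN3, CTSG and CEBPA, the last a granulocyte transcription factor gene described further below, are shown as examples. The genes were picked by name among myeloid genes and not by rank of level, so the windows show only their own composition. Each is the 250 bases before the RefSeq start site in the GRCh38.p14 build, on the strand of the gene, 5′ to 3′, with capitals for each match to the letters GAGGAA or their reverse complement TTCCTC, a core bound by the myeloid factor PU.1 and other ETS factors. The spellings cannot overlap each other. The windows are chr19:827587-827836 on the plus strand for AZU1, chr19:840749-840998 on the plus strand for PRTN3, chr14:24576251-24576500 on the minus strand for CTSG and chr19:33302535-33302784 on the minus strand for CEBPA.
AZU1: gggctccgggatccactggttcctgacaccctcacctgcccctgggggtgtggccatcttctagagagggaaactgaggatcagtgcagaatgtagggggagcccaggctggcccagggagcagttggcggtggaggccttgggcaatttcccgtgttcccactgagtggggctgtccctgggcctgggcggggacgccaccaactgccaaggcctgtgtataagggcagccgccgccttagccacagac
PRTN3: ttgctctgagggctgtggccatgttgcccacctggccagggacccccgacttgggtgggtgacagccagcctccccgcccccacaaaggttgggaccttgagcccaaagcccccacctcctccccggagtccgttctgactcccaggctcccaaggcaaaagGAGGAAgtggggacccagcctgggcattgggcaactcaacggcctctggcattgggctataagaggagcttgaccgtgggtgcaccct
CTSG: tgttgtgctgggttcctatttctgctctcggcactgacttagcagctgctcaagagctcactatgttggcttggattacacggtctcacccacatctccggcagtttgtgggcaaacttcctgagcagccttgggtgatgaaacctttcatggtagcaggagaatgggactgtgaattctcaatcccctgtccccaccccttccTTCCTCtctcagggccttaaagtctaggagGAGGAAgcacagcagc
CEBPA: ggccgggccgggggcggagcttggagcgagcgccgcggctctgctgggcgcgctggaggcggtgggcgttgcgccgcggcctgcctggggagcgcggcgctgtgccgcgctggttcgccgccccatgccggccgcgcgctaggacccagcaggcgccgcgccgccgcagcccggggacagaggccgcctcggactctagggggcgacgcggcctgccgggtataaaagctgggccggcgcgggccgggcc
CTSG held 2 matches, beginning 46 and 16 bases before the start site, PRTN3 held 1 beginning 88 bases before it, and the AZU1 and CEBPA windows held none. A match is a string of letters and not a shown binding site, and over all 15301 coding genes with an entry 23.6% of the windows held such a match (23.1% of expressed and 24.5% of off genes). The windows of these picked genes also differed in composition. CEBPA had 41 CG dinucleotides in its 250 bases, and AZU1, PRTN3 and CTSG had 7, 6 and 3.

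Start regions were called CpG-rich at a GC content of at least 50% and an observed to expected CpG ratio of at least 0.6 over 300 bases, 50 of them after the start site. Of the 9477 expressed coding genes with an entry 81.5% were CpG-rich, against 49.8% of 2104 genes between and 28.4% of 3720 off genes. The string TATAAA, the TATA box core, or its reverse complement TTTATA, which can overlap it, was found in the 250 bases of 5.21%, 9.27% and 19.3% of these genes, the opposite order. None of the 7 genes of the azurophil granule list with an entry was CpG-rich, and 1 of 17 of the specific granule list was. Over all coding genes the share was 64.2%. Metabolic lists differed, with 27 of 30 citric acid cycle genes and 29 of 32 sterol and fatty acid genes CpG-rich, but 14 of 25 glycolytic, 4 of 11 sugar and lactate transporter, 10 of 16 gluconeogenesis, glycogen and urea cycle and 11 of 17 amino acid and iron transport genes.

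All 16 genes for the processing, storage and inhibition of granule proteases were expressed. SRGN (serglycin, the proteoglycan that packs proteases in granules) stood at 863, 845 and 789.6 CPM, or 2155 ± 139 TPM, the highest of the list per kb. CTSD, a lysosomal aspartic protease, reached 795, 792 and 970.5 CPM and CST7 (cystatin F, an inhibitor of cysteine proteases in granules) 194, 195 and 224 CPM. CTSC, which cuts the serine proteases into their active form, stood at 336, 336 and 312 CPM. SERPINB1, the cytosolic inhibitor of elastase, stood at 191, 186 and 203 CPM. The genes that activate, hold and inhibit the proteases were thus all on.

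The specific and gelatinase granules are made later in granulocyte development, at the myelocyte and band stages. The list used for them has 22 genes and is wider than granule contents, since it also holds S100 genes. Of the 22 genes 11 were expressed (50%, beside 58.9% of all coding genes, and 4 at a threshold of 5 CPM). Of the others 8 lay between and 3 were off, and the list median was 2.65 TPM. The highest per kb were S100P (a calcium binding protein, 80.8, 83.6 and 109.9 CPM, 225 ± 34.8 TPM), MMP25 (a membrane-bound metalloprotease, 168, 158 and 198 CPM, 133 ± 13.3 TPM) and S100A9 (a subunit of calprotectin, 19.4, 19.3 and 23.5 CPM, 113 ± 10.9 TPM). Its partner S100A8 lay between, at 1.06, 1.07 and 0.853 CPM or 3.12 ± 0.438 TPM. LTF (lactoferrin) stood at 1.06, 0.854 and 0.522 CPM and MMP8 (neutrophil collagenase) at 0.485, 0.16 and 0.0522 CPM. S100A12, OLFM4 and CRISP3 had 0 counts. With CHI3L1 at 58.3, 63.4 and 64.6 CPM, 4 of the 22 genes passed 5 CPM in every library, S100P and S100A9 among them.

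Mitochondrially encoded genes and the translation machinery led the libraries. The 10 most abundant genes held 7.91% of the counts, the top 100 held 21.4% and the top 1000 held 51.8% (means of the 3 libraries). By CPM these 10 were MT-CO1, EEF1A1, MT-ND4, MT-CO3, MT-RNR2, MT-CO2, ACTB, MT-ATP6, GAPDH and ENO1. MT-CO1 (a subunit of cytochrome c oxidase) stood at 17996, 17546 and 16897 CPM and EEF1A1 (translation elongation factor 1 alpha) at 12077, 12243 and 13711 CPM. The next 10 were TUBB, MT-ND2, MT-ND1, MT-ND5, TUBA1B, EEF2, MT-CYB, RPL4, LCP1 and PABPC1, of which PABPC1 stood at 2541, 2531 and 2306 CPM. LCP1 (L-plastin), the actin bundling protein of blood cells, was the only gene among the 20 that is known as specific to leukocytes, at 2574, 2524 and 2443 CPM.

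Per kb of exon the 10 highest genes were all mitochondrial, from MT-CO1 at 35804 ± 1780.4 TPM to MT-ND2 at 9412 ± 456 TPM, with MT-CO3, MT-ND4, MT-CO2, MT-ATP6, MT-ND4L, MT-ATP8, MT-RNR2 and MT-ND1 among them. MT-ND4L was the least even of these, at 20981, 21299 and 13425 TPM. Mitochondrially encoded genes held 7.05% of the counts. Outside them and the ribosomal proteins, FTL (the light chain of ferritin, the iron store) came highest per kb with 6933, 7612 and 9632 TPM, and EEF1A1, ACTB, GAPDH and TUBB followed. SRGN, at rank 12 of that order, and TPSAB1, at rank 16 with 1868, 1812 and 2187 TPM, were the leading genes of granule cells there. TPSAB1 encodes a tryptase of mast cells and has near-identical neighbours, so its counts may include theirs. Among long non-coding genes NEAT1 (the scaffold of paraspeckles) held the most counts, at 355, 339.8 and 315 CPM, and GAS5, LINC00926, SNHG5, OIP5-AS1 and NORAD came next.

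Of 85 cytosolic ribosomal protein genes 83 were expressed, RPL3L lay between and RPL10L was off with 0 counts. Both are tissue-restricted copies of RPL3 and RPL10. The highest per kb was RPS12 with 4927 ± 652 TPM. Together the list held 5.99%, 6.03% and 7.32% of the counts, so replicate 3 carried the largest share. Its transcripts are short, with a median longest transcript of 1826 bases against 3646 over all genes of at least 5 CPM.

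Of 23 surface antigens of stem cells, progenitors and leukaemia, 18 were expressed (78.3%), 4 lay between and 1 was off. ANPEP (CD13, an aminopeptidase and a standard myeloid marker) was the highest, with 453, 448 and 483 CPM or 299 ± 6.4 TPM. SPN (CD43, the main sialoglycoprotein of leukocytes) followed at 92.6 ± 11 TPM and ADGRE5 (CD97, an adhesion receptor) at 76.4 ± 4.87 TPM. CD34, the stem and progenitor antigen, held 8, 16 and 19 counts, or 0.144, 0.285 and 0.331 CPM. PROM1 (CD133) was off, and THY1 (CD90) was uneven at 0.144, 2.69 and 1.86 CPM. KIT, the stem cell factor receptor, stood at 2.93, 3.7 and 2.54 CPM, CD38 at 12.4, 11 and 8.14 CPM and CLEC12A at 30.2, 33.7 and 27.1 CPM. PTPRC (CD45) stood at 163, 161 and 101 CPM and was lower in replicate 3 than in the other libraries.

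Of 26 integrin and adhesion genes 20 were expressed (76.9%). ITGB2 led at 627 ± 8.63 TPM, followed by ITGA4 (alpha 4, a receptor for VCAM1 and fibronectin) at 185 ± 43 TPM and ICAM3 at 164 ± 13.8 TPM. The partners of ITGB2 differed in level. Per kb ITGAL (of LFA-1) stood at 26.7 ± 1.12 TPM, ITGAM (CD11b, of Mac-1) at 12.5 ± 1.84 TPM, ITGAX at 2.48 ± 0.286 TPM and ITGAD at 0.401 ± 0.138 TPM, each far below the 627 TPM of the beta subunit. Neighbours in this order did not overlap. ITGA4 stood at 514, 522 and 345 CPM and ITGB1 at 271, 288 and 209 CPM, both lowest in replicate 3. VCAM1, SELE and SELP, genes of activated endothelium, had 0 counts.

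Of 37 receptors for cytokines and growth factors 28 were expressed (75.7%). By level per kb IL2RG (the common gamma chain) led at 291 ± 17.6 TPM, with IL6R at 136 ± 13.5 TPM and TNFRSF1A at 123 ± 4.86 TPM. CSF3R, the receptor for the granulocyte growth factor G-CSF, stood at 198, 201 and 212 CPM. CSF2RA and CSF2RB, which form the GM-CSF receptor, stood at 15.8, 18.5 and 16 CPM and at 21.6, 20.7 and 16.3 CPM. CSF1R, the receptor of the monocyte factor M-CSF, stood at 1.54, 1.3 and 1.84 CPM, and FLT3 at 12.5, 11.9 and 11.5 CPM. The granulocyte receptor thus stood at 76.2 ± 1.3 TPM and the monocyte receptor at 0.956 ± 0.15 TPM. IL6R stood at 290, 289.7 and 251 CPM, and per kb its signalling partner IL6ST (gp130) stood at 5.5 ± 1.25 TPM beside 136 ± 13.5 TPM for IL6R. The off members included IL5RA and IL2RA, receptor chains for interleukins 5 and 2, and IL1R2, a decoy receptor of interleukin 1. KDR, a receptor of VEGF, and PDGFRA, a receptor of PDGF, were off too. Other receptors of these ligands were not off. FLT1, also of VEGF, was expressed at 11.4, 11.1 and 8.74 CPM, and IL1R1, of interleukin 1, at 2.55, 2.79 and 2.24 CPM. PDGFRB, also of PDGF, lay between at 0.646, 1.99 and 0.418 CPM.

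Of 29 receptors for chemoattractants and chemokines 15 were expressed (51.7%, beside 58.9% of all coding genes). CXCR4, which binds CXCL12 and holds cells in the marrow, was the highest with 134, 141 and 133 CPM or 193 ± 8.75 TPM. S1PR4 (a sphingosine 1-phosphate receptor) stood at 69.6 ± 9.67 TPM and LTB4R (the leukotriene B4 receptor) at 48.2 ± 4.81 TPM. The formyl peptide receptors were unequal per kb, with FPR2 at 24.8 ± 1.91 TPM, FPR1 at 1.05 ± 0.303 TPM and FPR3 at 0 counts. FPR2 stood at 29.6, 30.5 and 27.2 CPM. Of the interleukin 8 receptors CXCR2 stood at 14.6, 13.6 and 12.9 CPM, or 13.4 ± 1.05 TPM, and CXCR1 was off. C5AR1, the anaphylatoxin receptor, was expressed on the strength of all 3 libraries but was uneven at 1.51, 7.24 and 1.36 CPM. CCR6 and CCR9 were also off.

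Of 32 pattern recognition and Fc receptors 17 were expressed (53.1%, beside 58.9% of all coding genes). FCER1G, the signalling chain shared by several Fc receptors, stood highest at 98.8 ± 13 TPM, with CLEC5A at 55.8 ± 4.16 TPM and FCGRT at 45.8 ± 4.73 TPM. TLR4, the endotoxin receptor, stood at 59.2, 55.1 and 43.2 CPM. Per kb it reached 12.5 ± 2.2 TPM, beside 7.74 ± 0.554 TPM for its co-receptor LY96 and 3.12 ± 0.116 TPM for CD14. TLR2 stood at 16.6, 18.9 and 17.2 CPM and TLR9 at 10.4, 8.93 and 11.9 CPM. TLR10, CLEC4E, CLEC10A, MRC1, MSR1, FCGR3A, FCGR3B and FCER1A were off. FCGR3A and FCGR3B are near-identical copies, so their 0 counts are uncertain. NLRP3, the sensor of an inflammasome, stood at 44.6, 44.8 and 41.8 CPM.

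Of 50 myeloid transcription factor genes 43 were expressed (86%), 6 lay between and MYCN was off with 0 counts. CEBPA, which directs granulocyte commitment, was the highest with 355, 370.1 and 420.4 CPM or 458 ± 32.2 TPM. MYC followed at 401 ± 13 TPM and GFI1, a repressor needed for neutrophil development, at 241 ± 17.2 TPM. MYB stood at 449, 453 and 345 CPM and SPI1 (PU.1) at 126, 127 and 150.1 CPM. Per kb CEBPA was followed by its relatives CEBPB (128 ± 7.55 TPM), CEBPG (68.9 ± 6.96 TPM), CEBPE (29.4 ± 3.28 TPM) and CEBPD (3.38 ± 0.712 TPM), and no neighbours in this order overlapped. CEBPE serves the late, specific granule stage. IRF8 stood at 79.1, 81.4 and 77.7 CPM, KLF4 at 7.75, 8.91 and 7.83 CPM, and the macrophage factor MAF at 0.269, 0.196 and 0.383 CPM. RARA stood at 47.7, 44.6 and 50.7 CPM and PML at 45.6, 44.1 and 47.2 CPM.

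Of 42 transcription factor genes of other lineages 11 were expressed (26.2%; 4 at a threshold of 5 CPM), 16 lay between and 15 were off. The highest per kb were TCF3 at 92.9 ± 0.859 TPM, IKZF1 at 70.9 ± 8.78 TPM and SNAI1 at 9.08 ± 0.454 TPM. TCF3 and IKZF1 are also used in early lymphoid and myeloid cells. GATA1, of red cells and platelets, had 0 counts, and TBX21, SOX10, MYOD1, CDX2 and NEUROD1 also had none. The B cell factors PAX5 and EBF1 were expressed at low level, with 6.17, 6.35 and 2.99 CPM and 4.29, 5.78 and 2.35 CPM, both lowest in replicate 3.

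The HOXA cluster on chromosome 7 was on along its whole length, with all 11 of its genes expressed. HOXA9 (chr7:27162435-27175180, minus strand) stood at 85.4, 84.4 and 82.3 CPM and HOXA10 (chr7:27170591-27180261, minus strand) at 119, 115 and 113 CPM. Their cofactor MEIS1 (chr2:66433452-66573869, plus strand) stood at 103, 106 and 88.9 CPM. Levels per kb were uneven along the cluster. HOXA9, HOXA10, HOXA11 and HOXA13, the 5′ end of the cluster, stood at 87.6 ± 3.26, 98.4 ± 4.4, 65.6 ± 2.88 and 31.4 ± 3.34 TPM. HOXA5 stood at 30.6 ± 1.43 TPM and HOXA7 at 13.7 ± 0.162 TPM, while HOXA2, HOXA3, HOXA4 and HOXA6 lay between 2.79 ± 0.225 and 9.19 ± 1.11 TPM. The other cofactors PBX2 (88.9 ± 4.06 TPM) and PBX3 (14.8 ± 1.59 TPM) were expressed too, and PBX4 lay between.

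None of the 10 HOXB genes was expressed. The highest per kb was HOXB9 with 0.222, 0.594 and 0.208 TPM, and HOXB1 and HOXB2 had 0 counts. HOXB5 and HOXB8 were also off, and the other 6 lay between. The summed HOXB level was 0.8795, 2.508 and 0.261 CPM and was highest in replicate 2. KMT2A, a regulator of HOX genes, stood at 78.5, 79.1 and 47.8 CPM. High HOXA9 and MEIS1 are the second point, after MPO, at which these libraries differ from what is known of acute promyelocytic leukaemia.

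**Figure D2:**
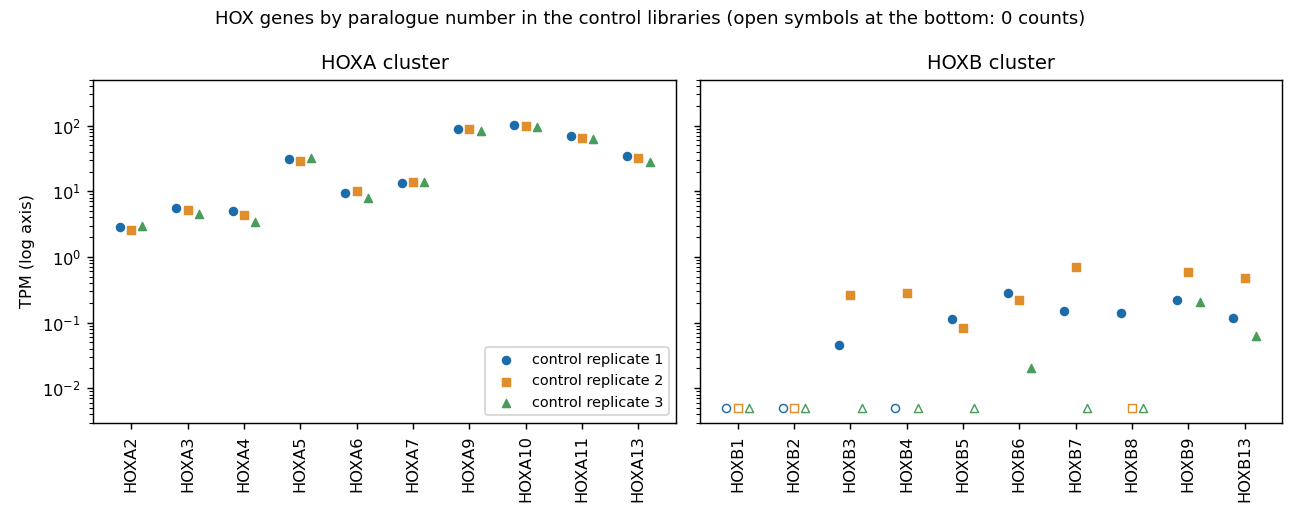
Levels of the HOXA and HOXB genes in TPM on a log axis, ordered by gene number, 1 symbol per control library and open symbols at the bottom for 0 counts. All HOXA genes shown lie above 1 TPM in every library with the highest means at HOXA9 and HOXA10 (87.6 and 98.4 TPM), and all HOXB genes lie below 1 TPM.

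Of 16 genes of the phagocyte and other NADPH oxidases 8 were expressed (50%, beside 58.9% of all coding genes). The phagocyte oxidase, which makes superoxide, was unevenly supplied. Its membrane subunits differed, with CYBA (p22phox) at 206, 208 and 274 CPM or 215 ± 31.8 TPM and CYBB (gp91phox, the catalytic subunit) at 3.7, 3.82 and 3.5 CPM or 2.62 ± 0.164 TPM. Of the cytosolic subunits NCF4 stood at 182 ± 13.6 TPM and NCF1 at 6.5 ± 0.421 TPM, and NCF1 has near-identical pseudogenes that may take its reads. RAC1 and RAC2, the GTPases, stood at 349.6 ± 11.8 and 219.8 ± 8.01 TPM. NOX3, NOX4 and NOXO1, which belong to other oxidases, were off.

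Bleeding from disturbed coagulation and fibrinolysis is a known feature of acute promyelocytic leukaemia. Of 24 genes of these systems 16 were expressed (66.7%, beside 58.9% of all coding genes). SERPINB2 (an inhibitor of plasminogen activators) at 165 ± 15.6 TPM, ANXA2 at 165 ± 7.78 TPM and VKORC1 (vitamin K reductase) at 101 ± 14.4 TPM were highest per kb. ANXA2 stood at 432, 463 and 489 CPM, or 165 ± 7.78 TPM, and its partner S100A10, with which it binds plasminogen on the cell surface, reached 51.1 ± 1.81 TPM. F3 (tissue factor), which starts coagulation, stood at 7.11, 8.43 and 6.18 CPM. PDPN (podoplanin), HGF and PLG had 0 counts, and F7 and F13A1 were off.

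The classes of antigen presenting molecules differed. Of 19 class I and peptide loading genes 18 were expressed, led by CALR (calreticulin) at 2144 ± 101 TPM, B2M at 786 ± 10.5 TPM and PDIA3 at 776 ± 4.24 TPM, and HLA-G was off. HLA-B and HLA-C stood at 245 ± 18.6 and 237 ± 19.6 TPM. Of 17 class II genes 11 were expressed (64.7%, beside 58.9% of all coding genes, and 5 at a threshold of 5 CPM) and 6 lay between. The class II chains themselves were low, with HLA-DRA at 2.85, 3.4 and 1.65 CPM, HLA-DRB1 at 2.14, 2.31 and 2.31 CPM and HLA-DPA1 at 1.04, 1.42 and 1.22 CPM. CD74 (the invariant chain) stood at 115, 118 and 137 CPM or 122 ± 9.22 TPM, RFXANK at 68.8 ± 8.32 TPM and RFX5 at 59.6 ± 4.85 TPM, and CIITA, the class II master regulator, at 4.25, 5.59 and 4.92 CPM. HLA genes are similar to one another and vary between people, so their counts are uncertain.

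In glycolysis each step was served mainly by 1 to 3 isoforms, and the others lay far lower or were off. Of 27 genes 20 were expressed (74.1%), LDHC lay between and 6 were off, among them GAPDHS, PGK2, PGAM2 and PKLR. GAPDH (3875 ± 313 TPM), ENO1 (2153 ± 203 TPM) and LDHB (1033 ± 86.4 TPM) were the highest per kb. Among hexokinases, which trap glucose in the cell, HK1 stood at 69.6 ± 2.01 TPM, HK2 at 56.5 ± 6.59 TPM, HK3 at 40.5 ± 3.28 TPM and HKDC1 at 2.75 ± 0.331 TPM. Of the phosphofructokinases PFKL and PFKP stood at 114 ± 7.44 and 114 ± 4.07 TPM and the muscle form PFKM at 2.77 ± 0.392 TPM. The liver and platelet forms thus did not differ beyond their spread.

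ALDOA stood at 846 ± 88.6 TPM and ALDOC at 3.54 ± 0.259 TPM. The single-form steps were served by GPI at 217 ± 11 TPM and TPI1 at 816 ± 86.9 TPM. PGK1 stood at 337 ± 6.31 TPM, PGAM1 at 483 ± 15.5 TPM and PKM at 884 ± 51.5 TPM, each beside a tissue-restricted form that was off. Enolase had ENO3 (muscle) at 12.1 ± 1.36 TPM and ENO2 (neurons) at 1.89 ± 0.139 TPM beside ENO1. Of the lactate dehydrogenases LDHB stood at 963, 1006 and 1129 TPM and LDHA at 428, 427 and 411 TPM, so the LDHB level was above that of LDHA in all 3 libraries. Part of the LDHB exons (33.4%) is shared with another gene of its strand, and its counts may hold reads of that gene. The summed level of the list was 14892, 15033 and 17370.2 CPM, highest in replicate 3.

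**Figure D3:**
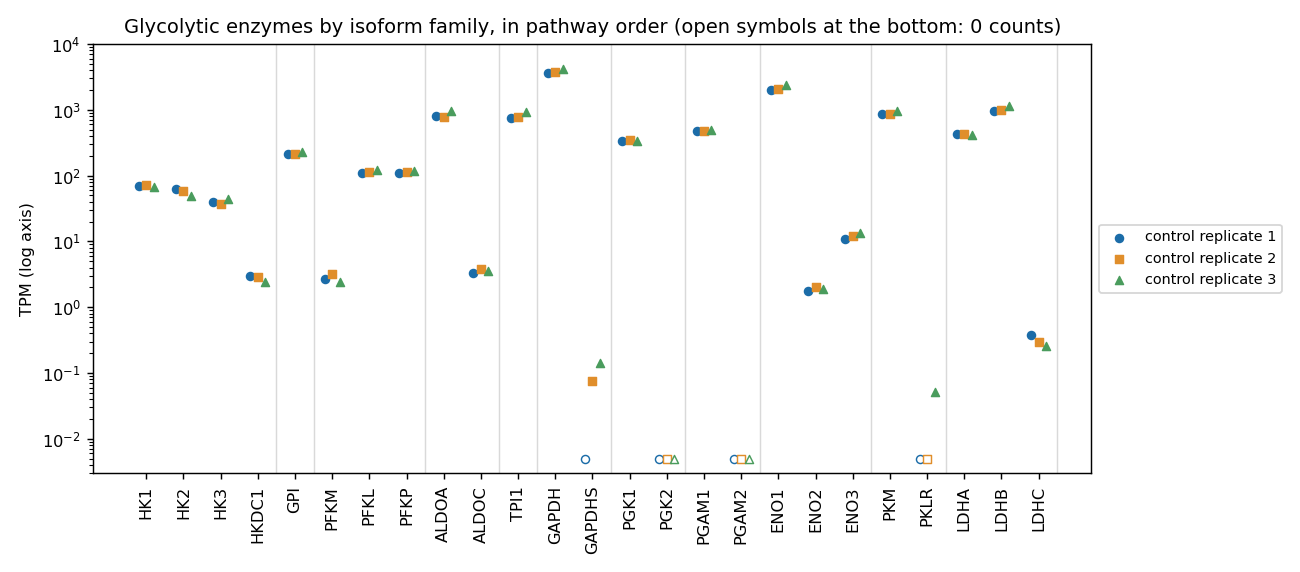
Levels of glycolytic enzyme genes in TPM on a log axis in pathway order, 1 symbol per control library, vertical lines between isoform families and open symbols at the bottom for 0 counts. Within the families of aldolase, glyceraldehyde phosphate dehydrogenase, phosphoglycerate kinase and mutase, enolase and pyruvate kinase, 1 gene stands above the others in all 3 libraries, and 2 or more hexokinases, phosphofructokinases and lactate dehydrogenases lie above 10 TPM.

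Of 14 sugar and lactate transporters 7 were expressed (50%, beside 58.9% of all coding genes). The lactate carriers SLC16A1 and SLC16A3 stood at 118 ± 12.6 and 106 ± 7.69 TPM. The glucose carrier SLC2A1 stood at 50.6 ± 1.62 TPM and the fructose carrier SLC2A5 at 41.9 ± 2.06 TPM, above the glucose carrier SLC2A3 at 14.1 ± 1.59 TPM. SLC2A2, SLC16A8 and SLC5A1 were off. Of 19 genes of gluconeogenesis, glycogen and the urea cycle 10 were expressed (52.6%). ASS1 (argininosuccinate synthase) led at 228 ± 13.4 TPM, with PYGL (liver-type glycogen phosphorylase) at 154 ± 2.92 TPM and PCK2 (mitochondrial) at 103 ± 7.45 TPM. The hepatic genes G6PC1, FBP2 and OTC had 0 counts, and PCK1 and GYS2 were off.

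Of 12 pentose phosphate genes 10 were expressed, led by PGD at 515 ± 12.3 TPM, TALDO1 at 385 ± 28.2 TPM and TKT at 226 ± 7.63 TPM. The copies TKTL1 and TKTL2 had 0 counts. Of 33 citric acid cycle genes 30 were expressed (90.9%), with IDH2 at 326 ± 18.1 TPM, MDH2 at 243 ± 15.5 TPM and FH at 223 ± 6.06 TPM highest. The restricted forms OGDHL and PDHA2 had 0 counts. PDK1, which switches off pyruvate dehydrogenase, stood at 726, 722 and 584 CPM or 144 ± 19.7 TPM, above PDK3 at 26.6 ± 2.96 TPM, PDK2 at 5.44 ± 0.144 TPM and PDK4 at 0.996 ± 0.529 TPM. None of these neighbours overlapped. The cycle was among the steadiest lists, with a median coefficient of variation of 5.53% for its 29 genes of at least 5 CPM against 8.9% over all such genes.

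Of 30 genes of serine, one-carbon and amino acid metabolism 19 were expressed (63.3%, beside 58.9% of all coding genes). The serine synthesis genes PHGDH, PSAT1 and PSPH stood at 593, 575 and 707 CPM, at 364, 357 and 329 CPM and at 74.1, 77.5 and 73.9 CPM. Per kb PSAT1 was the highest of the list at 505 ± 36.1 TPM, followed by SHMT2 (mitochondrial serine hydroxymethyltransferase) at 293 ± 12.8 TPM and PHGDH at 214 ± 20 TPM. ASNS, the asparagine synthetase, stood at 9.46, 8.93 and 5.38 CPM, and 44.6% of its exon bases are shared with another gene of its strand. GLS2, ALDH1L1, IDO1, IDO2, TAT and HGD were off, and HPD, of tyrosine breakdown, stood at 28.6, 26.4 and 33.5 CPM.

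Of 21 genes for amino acid and iron transport 18 were expressed (85.7%). FTL stood at 8059 ± 1404 TPM and FTH1, the heavy ferritin chain, at 743 ± 57.2 TPM, and both have processed copies in the genome that may share reads. SLC1A5, a glutamine carrier, stood at 462, 461 and 520.3 CPM or 456 ± 22.9 TPM, and SLC7A5 and SLC3A2, which form a carrier of large neutral amino acids, at 382 ± 7.88 and 165 ± 5.41 TPM. TFRC, the transferrin receptor, stood at 389.8, 389 and 311 CPM, lowest in replicate 3. HAMP (hepcidin) had 0 counts.

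Of 39 genes of sterol and fatty acid synthesis 34 were expressed (87.2%). SCD, the stearoyl-CoA desaturase, was the highest with 1190.4, 1186 and 1013 CPM or 666 ± 71.8 TPM. FDFT1, of cholesterol synthesis, stood at 229 ± 4.69 TPM, and FASN, the fatty acid synthase, at 616, 620.4 and 591 CPM or 205 ± 9.3 TPM. IDI2 and ELOVL4 were off.

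All 13 mitochondrially encoded protein genes were expressed. Of 18 nuclear genes for cytochrome c oxidase subunits and their isoforms 13 were expressed, led by COX8A at 722 ± 111 TPM, COX5A at 353 ± 35.5 TPM and COX6B1 at 336 ± 38.8 TPM. The muscle forms COX6A2 and COX7A1, the lung form COX4I2 and the testis form COX7B2 had 0 counts, and COX6B2 lay between. COX8C, which is known from testis, stood apart from those forms with 6.78, 7.97 and 8.65 CPM or 46.2 ± 4.91 TPM. It was expressed in all 3 libraries.

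Of 30 cell cycle genes 29 were expressed (96.7%), and CDKN1C lay between. PCNA, the clamp of DNA replication, stood at 888 ± 30.2 TPM, MCM7 at 367 ± 21.7 TPM and TOP2A at 276 ± 57.4 TPM. MKI67 stood at 665, 674 and 582 CPM. The D cyclins were led by CCND3 at 70.4 ± 3.38 TPM, with CCND2 at 31.2 ± 1.09 TPM and CCND1 at 6.72 ± 1.23 TPM. CCNA1, a cyclin of germ cells also known from myeloid leukaemia, stood at 43.5, 47.6 and 46.3 CPM, or 60.2 ± 2.75 TPM beside 209 ± 22.6 TPM for CCNA2. The inhibitor gene CDKN2A stood at 87.9, 88.1 and 103 CPM and CDKN1B at 122, 122 and 104 CPM. RB1 stood at 117, 117 and 74 CPM, lowest in replicate 3.

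Of 17 BCL2 family genes 14 were expressed (82.4%). Among the members that protect cells, MCL1 stood at 149 ± 11.1 TPM, BCL2L1 (BCL-XL) at 92.5 ± 3.72 TPM, BCL2A1 at 39.6 ± 3.08 TPM, BCL2L2 at 18.9 ± 2.32 TPM and BCL2 at 9.21 ± 1.78 TPM. These levels did not overlap between neighbours. Of the members that permeabilise mitochondria BAK1 and BAX stood at 57.8 ± 6.16 and 46.6 ± 5.17 TPM, and of the BH3-only members BID was the highest at 59.2 ± 1.96 TPM. HRK and BCL2L10 were off.

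**Figure D4:**
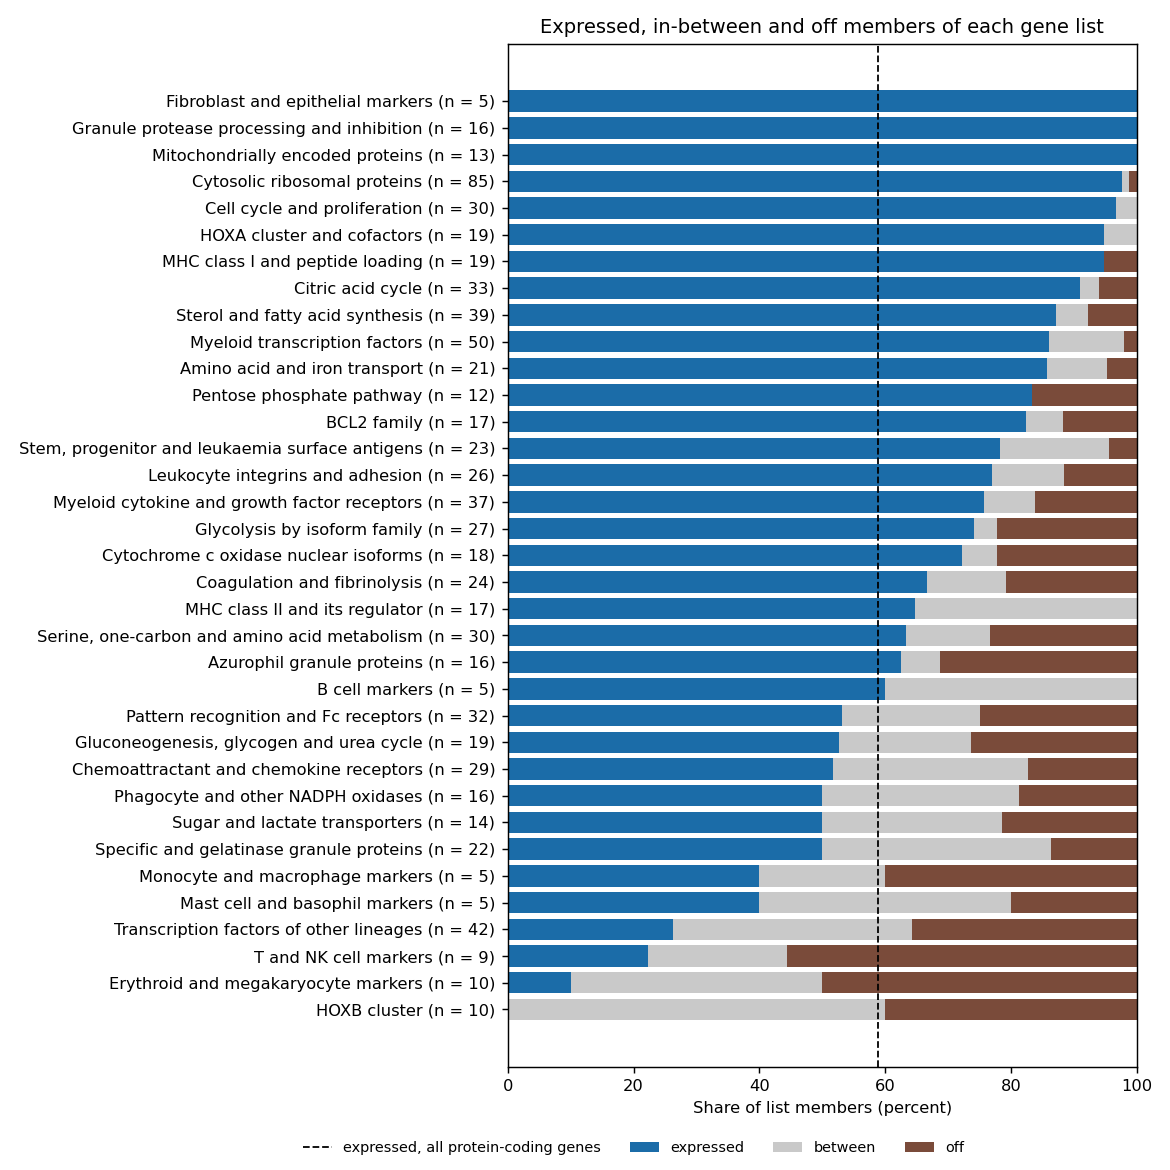
Share of each gene list, in percent, that was expressed, between or off in the 3 control libraries, with the number of measured genes in brackets and the dashed line at 58.9%, the share of all protein-coding genes that was expressed. Granule processing genes, mitochondrially encoded genes and the 5 fibroblast and epithelial markers are at 100%, and the azurophil granule list is at 62.5%. Transcription factors of other lineages are at 26.2% and HOXB genes at 0%.

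Markers of other cell types were mostly low, with exceptions. None of the 5 monocyte and macrophage markers passed 2 CPM, and CD163 and C1QA had 0 counts. Of 10 erythroid and megakaryocyte markers only KLF1 was expressed, at 1.06, 1.26 and 1.84 CPM, ALAS2, GP9 and PPBP had 0 counts and PF4 was off. Of 9 T and NK cell markers NKG7 (a granule membrane protein of cytotoxic cells, 56.1, 53.7 and 70.8 CPM) and NCAM1 (CD56, 46.2, 49.3 and 44 CPM) were expressed (4 of the 9 at a threshold of 0.5 CPM), while CD3E and CD3G had 0 counts and CD3D, KLRD1 and GNLY were off. Of 5 mast cell and basophil markers TPSAB1 (885, 858 and 1071 CPM) and KIT were expressed, and CPA3, a defining mast cell protease, had 0 counts.

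Of 5 B cell markers 3 were expressed (60%, beside 58.9% of all coding genes, and 0 at a threshold of 5 CPM). All 5 together summed to 16.64, 14.57 and 12.9 CPM. CD79A stood at 4.99, 4.68 and 6.98 CPM and MS4A1 at 2.6, 1.37 and 0.452 CPM. All 5 fibroblast and epithelial markers were expressed (3 at a threshold of 2 CPM), with a summed level of 77.77, 95.5 and 81.95 CPM. KRT8 (a keratin of simple epithelia) stood at 56, 59 and 55.9 CPM, COL1A2 at 10.6, 14.9 and 13.8 CPM, COL1A1 at 5.26, 15.2 and 8.94 CPM, EPCAM at 2.39, 3.06 and 1.64 CPM and CDH1 at 3.59, 3.4 and 1.64 CPM. Replicate 2 had the highest collagen levels. Whether such transcripts come from other cells was not tested.

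The spread between the libraries was small for most genes and had 1 main direction. The biological coefficient of variation, edgeR's estimate of the spread beyond counting, was 16.5% over 17347 genes and 11.3% over 17965 genes without replicate 3. By level the median coefficient of variation, which includes counting error, fell from 18.9% at 1 to 5 CPM to 8.54% at 20 to 100 CPM. It was 7.13% from 1000 CPM on. Counting error alone had medians of 9.23%, 1.99% and 0.33% at these levels on the counts as deposited. On counts divided by 4 its medians were 18.5%, 3.98% and 0.661%. Between replicates 1 and 2, 8.77% of genes differed beyond the 95% interval of counting error taken on counts divided by 4, against 48.5% and 47.9% for the pairs with replicate 3. These shares cover 6125, 6057 and 6105 coding genes without exon overlap on either strand and with at least 20 such counts per pair. Replicate 3 was at least 1.5-fold below both other libraries for 332 of 10853 genes of at least 5 CPM (3.06%) and above them for 33 (0.304%). Replicate 1 was as far below both others for 37 genes (0.341%) and above them for 18 (0.166%), and replicate 2 for 23 (0.212%) and 34 (0.313%). Most genes that set 1 library apart were thus lower in replicate 3.

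The deviation of replicate 3 went with transcript length and GC content. Its median log2 ratio to the mean of the other libraries fell from 0.18 in the quintile of genes with the shortest transcripts to -0.29 in that with the longest. By GC content it rose from -0.30 in the lowest quintile to 0.16 in the highest. Across 9363 genes, which are not independent replicates and share these libraries, Spearman's rho was -0.577 with length and 0.612 with GC. The list medians of this log2 ratio were 0.29 for ribosomal proteins and 0.27 for the azurophil granule list, both with short transcripts. They were -0.32 for amino acid and iron transport and -0.20 for surface antigens, both with long ones. Some lists did not follow this order. Mitochondrially encoded protein genes, with a median transcript of 784 bases, stood at -0.03, the HOXA genes and cofactors (2902 bases) at -0.17 and the integrin and adhesion genes (4189 bases) at 0.03. The part of length and GC in the lower PTPRC, ITGA4, TFRC and RB1 levels of replicate 3 was not tested.

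**Figure D5:**
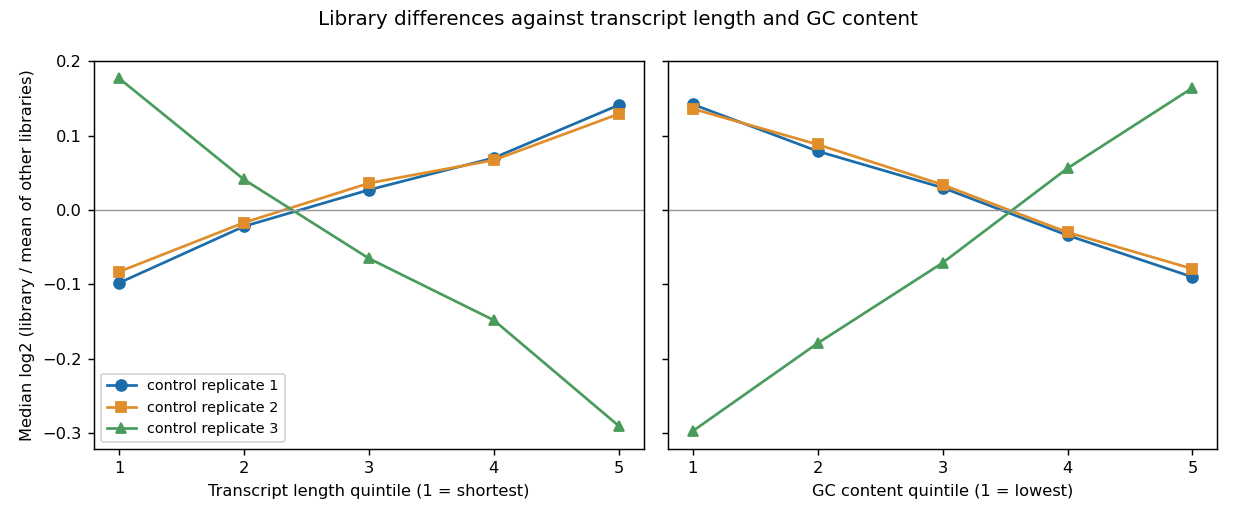
Median log2 ratio of each control library to the mean of the other libraries, over genes of at least 5 CPM split into quintiles by longest transcript and by GC content. Replicates 1 and 2 run together, and replicate 3 runs from 0.18 to -0.29 with rising length and from -0.30 to 0.16 with rising GC content.

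Of 10853 genes of at least 5 CPM, 134 differed by 2-fold or more between the highest and the lowest library (1.23%). Among the 15 with the largest ratios, 10 shared at least 10% of their exon bases with another gene on their strand, as did 49 of the 134 genes. Over the 10853 genes the share was 7.85%, taken among those with a gene model in the annotation used. The 15 and the 134 also hold genes without a model. Several of the 15 are read-through genes that join neighbouring genes, such as SENP3-EIF4A1 at 786, 679 and 72.1 CPM, IFNAR2-IL10RB at 13.9, 0.854 and 0.696 CPM and PDCD6-AHRR at 48.1, 38.4 and 0.94 CPM. Others have an Ensembl identifier only, as ENSG00000285839 at 38.7, 0.0356 and 26.3 CPM. ARHGEF10 at 17.2, 1.12 and 0.278 CPM also shares 59.5% of its exon bases.

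Of the 15, 3 have no such overlap and 2 have no gene model in the annotation used. DHFR2, a copy of dihydrofolate reductase, stood at 7.56, 7.58 and 0.383 CPM. GRB7, an adaptor of receptor tyrosine kinases, stood at 11.5, 14 and 0.818 CPM. ZNF614, a zinc finger gene, stood at 12.9, 12.3 and 1.13 CPM. In all of these replicate 3 was the low library and replicates 1 and 2 were close. The genes named next were chosen after their values were seen, from those next in order without overlap. The receptor tyrosine kinase gene ERBB2, which lies near GRB7 on chromosome 17, stood at 18.8, 21.9 and 3.22 CPM. AXL (another receptor tyrosine kinase), UCHL1, DKK1 and COL6A2 were highest in replicate 2, with AXL at 2.6, 13.9 and 2.66 CPM. The aldehyde dehydrogenase ALDH1A1 was highest in replicate 1, at 10.9, 2.61 and 1.48 CPM, as was AKR1C2.

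The thresholds for expressed and off split some neighbours narrowly. In the lowest library ME1 and HLA-F stood at 1.01 CPM and HLA-DPA1 at 1.04 CPM, just inside the expressed class, and SLC16A7 at 0.992 CPM, IL3RA at 0.969 CPM and BOK at 0.933 CPM lay just outside. In the highest library TLR10 and NANOG stood at 0.197 CPM, just inside the off class, and IL2RB and SOX2 at 0.209 CPM and GATA3 at 0.213 CPM lay just outside. Over all 787 list members 569 were expressed (72.3%), 109 lay between and 109 were off.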

How the data were processed

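Poly(A) RNA was made into strand-marked libraries and read in pairs, per the labels' protocols. Gene-level counts of all libraries were deposited as 1 table and are treated here as estimated counts. Per the submitters' processing notes FastQC, fastp, STAR and featureCounts of Subread were used with GRCh38 (hg38). Their order and versions, the strand setting, the annotation release and what was counted as 1 are not given in the sources for these libraries. The values were whole numbers with an excess of genes at exactly 4 counts (1496, 1419 and 1432 genes, against 777, 824 and 794 at 3 and 505, 498 and 474 at 5), so 1 fragment may stand for about 4 counts. The 3 columns of the overexpressing libraries were not used.

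CPM is the count over the column total, times 1000000, with no factors. TPM was computed from the deposited counts with union exon lengths of GENCODE release 29, which held a model for 58254 genes (94.3%), and these positions and overlaps follow that annotation. The spread was estimated with edgeR 4.0.16 (R 4.3.3; estimateDisp, no covariates, filterByExpr, TMM factors) and checked on simulated data. No test was made, since the libraries form 1 group. Start regions came from RefSeq (GRCh38.p14) and matched 15301 coding genes.

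The gene lists and the rule for naming genes were chosen with earlier results of these data known. The rule named 6 marker genes, the 20 genes of most counts, the 10 highest per kb, the 3 highest and (up to 8) the off members of each list, the glycolytic isoforms, the 15 genes of largest spread and the 3 members on either side of each threshold. Values of some genes under this rule are not reported here. All other members were chosen after their values were seen. Counts are uncertain for named genes that share at least 10% of their exon bases with another gene of their strand (PRG2, CTSD, IL2RG, PDGFRA, CCR6, TLR9, HOXA4, HOXA9, PBX2, KMT2A, SERPINB2, VKORC1, CIITA, ALDOA, LDHB, GYS2, ASNS, MT-ATP8, COX6B2, COX8A, CCND2 and BCL2L2). Since the strand setting is not given, the same holds for overlap with the opposite strand (LYZ, CTSD, MMP25, THY1, ICAM3, CLEC5A, CEBPA, CEBPB, RARA, HOXA3, HOXA4, HOXA6, HOXA7, HOXA9, HOXA10, HOXA11, NOXO1, VKORC1, CIITA, RFXANK, HLA-B, HLA-F, HLA-G, PDIA3, ALDOA, ALDOC, GAPDH, GAPDHS, PGAM2, PKLR, FBP2, GYS2, PDK2, GLS2, SLC1A5, FTH1, IDI2, COX6A2, CCND1, BCL2L1, TUBB and TUBA1B). Alternatives varied the thresholds, the scaling, the filter and the libraries. Those that averaged replicates 1 and 2, divided counts by 4 or left out overlapping genes were chosen after seeing the data. Figures were drawn with matplotlib 3.10.9.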

Additional observations from a re-analysis of the deposited data

How the results depend on the processing

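The count of expressed genes ran from 10547 at a threshold of 5 CPM to 14849 at 0.5 CPM and stayed within 1.5 times 13439 under every threshold, scaling and left-out library tried, and so did the counts of coding and of off genes. Some counts of listed genes moved by over 1.5 times. At 5 CPM fewer genes of the specific granule list (4) and transcription factors of other lineages (4) were expressed. The same held for class II genes (5) and mast cell and basophil markers (1). No B cell, monocyte or erythroid and megakaryocyte marker was expressed at that threshold. Fibroblast and epithelial markers fell from 5 to 3 at 2 and at 5 CPM, and the monocyte and the erythroid and megakaryocyte markers to 0 at 2 CPM. T and NK cell markers rose from 2 to 4 at 0.5 CPM and per kb, and erythroid and megakaryocyte markers from 1 to 2 at 0.5 CPM. With mitochondrial genes left out of both the ranking and the total, the top 10 of the remaining genes held 4.54% and the top 100 held 16.8%. Scaled and ranked per kb, the top 10 genes held 20.7% and the top 100 held 40.3%. The mitochondrial share was 26.3% per kb. The biological coefficient of variation was 25.8% with no filter on low counts and 11.3% to 18.7% with 1 library left out, lowest without replicate 3, and 11.7% with every count divided by 4, an alternative added after seeing the data. No paired analysis was possible because the 3 libraries form 1 group and no result comes from a test. Depth limits what can be said of genes under 3 counts, and levels of 1 to 5 CPM have a median coefficient of variation of 18.9%.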
